A study of Mus musculus with 21 samples.

Results

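The genes described here are the 373 of 16443 measured genes whose mean level was shifted in the same direction, relative to control cells, in all 3 rescued lines derived from 2TS22C, a line of mouse embryonic stem cells, and in both culture media. They were chosen by a rule on these same libraries. A gene was selected when the mean of each of the 3 rescued lines was at least 1.5 times the control mean of that medium in all 6 comparisons, or was at least 1.5-fold lower than it in all 6, and when its highest group mean was at least 50. The rule took 201 genes that were higher than the control and 172 that were lower. All contrasts of rescued lines with the control were used to choose the genes, so their values are given as a description and carry no test.

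The control, called NTC in the labels, is 2TS22C with the genotype WT, not transduced and with no doxycycline named (the second set of libraries gives its treatment as N.A.). The rescued lines were transduced with a lentivirus carrying SOX2, SOX17FNV (an engineered SOX17, called FNV below) or miniSOX, their endogenous SOX2 was silenced, and they were treated with doxycycline (DOX). Each line was grown in serum and LIF (SL) and in the same medium with 2i. Doxycycline, transduction, the silencing of endogenous SOX2 and the history of the rescued lines all differ from NTC together and cannot be told apart in this design. The labels do not say whether a line is a clone or a pool, nor how long it had been grown.

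There were 21 libraries in 8 groups. In 2i there were 3 of NTC, 4 of SOX2, 4 of FNV and 2 of miniSOX, and in SL 2 of each. The labels fall into 2 sets, told apart by how title and organism are written. The first set is made of the libraries numbered 1 and 2 of each line but miniSOX, in either medium. The second is made of all miniSOX libraries and of those named p21 and p31, which were grown in 2i, so NTC has a single library of that set (NTC p31). Only the titles of the NTC, SOX2 and FNV libraries of the second set speak of biological replicates, and the miniSOX titles do not. Those titles number from biological replicate 2, and no title says whether replicates 1 and 2 of the first set are 1 biological replicate. All SL groups hold only libraries numbered 1 and 2, so spread between biological replicates may not be measured there. The p-values below measure no more than the spread between these samples. Values are the authors' normalized whole numbers, given without a unit, and read depth is unknown.

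SOX2 is a transcription factor of pluripotent cells and of the early nervous system, and SOX17 directs endoderm formation. Embryonic stem cells make much of their ATP by glycolysis. Genes for glycolytic enzymes and glycogen handling are switched on by the hypoxia-inducible factors, whose breakdown is triggered by prolyl hydroxylases such as EGLN3, and the EGLN3 gene is itself a target of these factors. The drug doxycycline can inhibit mitochondrial translation, and lentiviral transduction can be sensed by DNA and RNA sensors of the interferon system, and gene lists for both were included for that reason.

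The labels were checked on the transcripts of the rescue genes. Sox2 (chr3:34650405-34652461 in the GENCODE M21 annotation of GRCm38, mm10, which is used throughout) stood at 19 to 60 in the FNV and miniSOX libraries of both media and at 533 or more in every NTC and SOX2 library. Sox17 (chr1:4490931-4497354) stood at 0 to 6 in NTC and SOX2 and at 1792 or more in FNV and miniSOX. The stem cell genes Pou5f1 and Nanog were at 4525 or more in every library. Among the other marker lists, the summed level of 9 fibroblast markers was 1476 to 4386 in NTC and 149 to 1017 in the rescued lines in 2i. On the fixed list of fibroblast and mesenchyme genes, with 14 measured, the median log2 ratio in 2i did not fall with that sum. It was -0.08 in SOX2, 0.69 in FNV and 0.66 in miniSOX. The sum of 8 trophectoderm markers was 9418 to 9455 in NTC, 1620 to 2465 in SOX2 and FNV and 16056 to 16172 in miniSOX in SL, and in 2i 1228 to 2748 in NTC, 825 to 1414 in SOX2, 5248 to 7362 in FNV and 2585 to 2648 in miniSOX. The 4 primitive endoderm markers, Sox17 among them, were summed to 4413 or more in FNV and miniSOX against 279 to 1469 in NTC and SOX2. In SL most of that sum in FNV and miniSOX was Sox17 itself. Sox17 alone stood at 13693 and 30391 in FNV in SL, where the sum was 13858 to 30549. In miniSOX in SL it stood at 4179 and 4138, where the sum was 4611 to 4647. The SL sums therefore show no gain of the other markers. In 2i the sum was 6113 to 8591 in FNV, where Sox17 stood at 1792 to 3301. In miniSOX in 2i it was 4413 to 4665, with Sox17 at 1813 and 1953. There the other markers alone exceeded the whole sum in NTC (279 to 507) and SOX2 (639 to 1469) in 2i. In SL the sum of 4 neuroectoderm markers was 606 to 745 in NTC and 1598 to 1903 in SOX2. FNV held 2474 to 2727 and miniSOX 2044 to 2174. In 2i NTC held 509 to 2101, SOX2 542 to 1236, FNV 566 to 1100 and miniSOX 749 to 773. The part of these marker differences in the results below was not tested.

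Across the 201 higher genes the median ratio to NTC was 2.66 in SOX2, 3.44 in FNV and 3.52 in miniSOX in 2i, and 2.69, 5.64 and 3.44 in SL. Across the 172 lower genes the median was 2.61-fold lower in SOX2, 3.51-fold in FNV and 4.48-fold in miniSOX in 2i, and 2.26-fold, 3.34-fold and 3.28-fold in SL. In 2i the miniSOX libraries are all of the second set, while the NTC, SOX2 and FNV means mix both sets. The place of miniSOX among the lines is therefore not separated from the set of libraries. Over all 16443 genes the median log2 ratio lay between -0.04 and 0.01 in each of the 6 comparisons. SOX2 had the mean nearest NTC for 129 of the higher genes in 2i and 132 in SL, and for 107 and 98 of the lower genes. FNV in SL was the most distant of the 6 for 76 of the 201 higher genes. At least a 2-fold shift in all 6 was reached by 77 higher and 53 lower genes, and at least a 4-fold shift by 24 and 8.

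**Figure D1:**
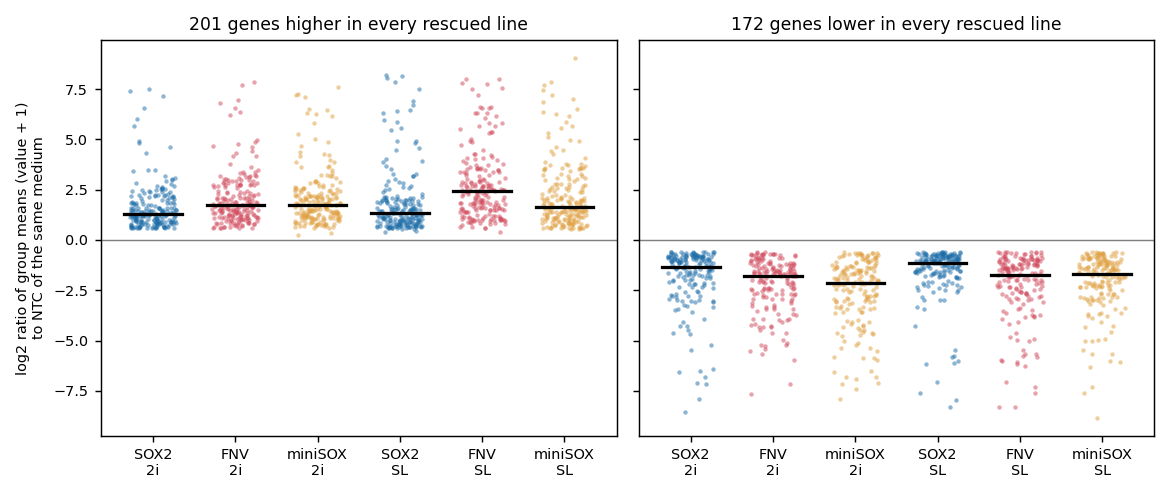
Each point is 1 gene, and the vertical axis is the log2 ratio of a rescued group's mean to the NTC mean of the same medium, after adding 1 to both, with the 3 lines in 2i at left and in SL at right of each panel and a bar at the median. The medians of the higher genes run from 1.32 (SOX2 in 2i) to 2.42 (FNV in SL) and those of the lower genes from -1.16 (SOX2 in SL) to -2.12 (miniSOX in 2i); the rule itself keeps the points away from 0.

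The rule alone took 1.22% of all genes as higher and 1.05% as lower, and 10.3% of all genes were higher and 12.2% lower in all 6 comparisons by any amount. Group means hide how far single libraries overlap. Of the 201 higher genes, 112 had every rescued library above every NTC library in 2i, against 6.46% of all genes, and 160 in SL, against 11.9%. For the 172 lower genes the counts were 85 in 2i (6.67% of all genes) and 159 in SL (13.8%). Nothing is read from these shares, since the same libraries chose the genes.

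In 2i, with 13 libraries against 8 in SL, fewer genes were free of overlap, and NTC p31 differed from the other NTC libraries for many of them; the part of either was not tested. NTC p31 was more than 1.5-fold away from the mean of NTC replicates 1 and 2 toward the rescued side for 71 higher and 73 lower genes, and away from it on the other side for 56 and 54. Within the first set alone, 160 higher and 141 lower genes still met the rule's ratio in SOX2 and FNV in 2i. Against NTC p31 within the second set, 164 higher and 108 lower genes did so in SOX2, FNV and miniSOX. Both sets gave it for 129 and 84 genes. The rule used means over both sets, so these counts are not independent of the choice of genes. They are a description, without a share over all genes, and nothing is read from them. In SL, NTC and miniSOX libraries are of different sets, so line and set cannot be told apart there.

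**Figure D2:**
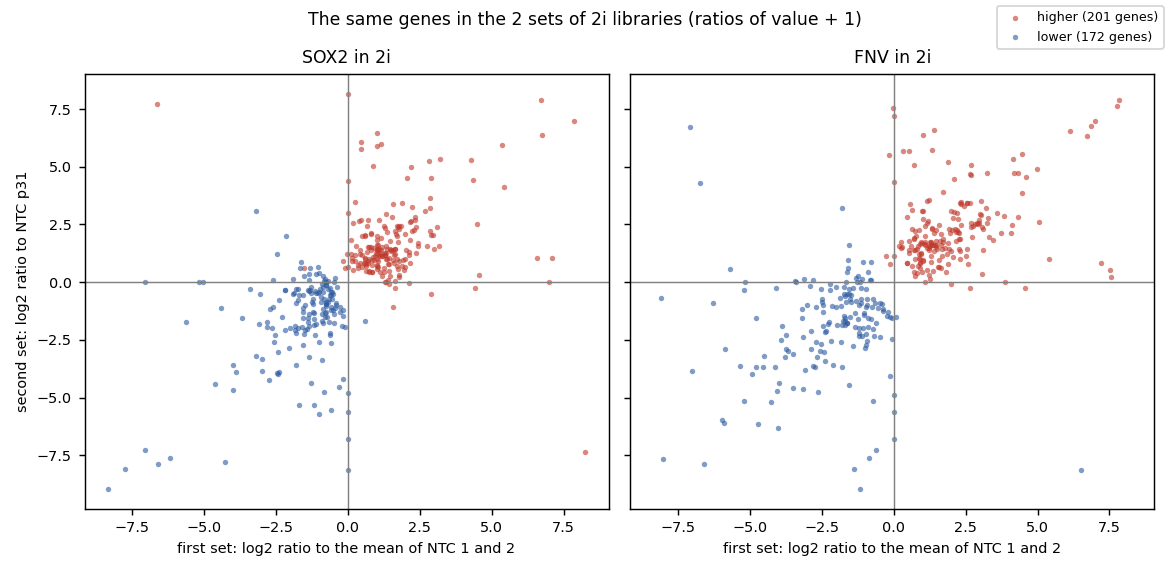
Each point is 1 of the 373 genes in 2i; the horizontal axis is the log2 ratio in the first set (mean of replicates 1 and 2 of the line to the mean of NTC 1 and 2) and the vertical axis that in the second set (mean of p21 and p31 to NTC p31), with 1 added to each mean. For FNV, 189 of 201 higher and 144 of 172 lower genes keep their direction in both sets, and for SOX2 183 and 143. The libraries of both sets chose the genes, so these counts are a description and no independent check.

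The lower genes held the larger group with a shared role, sugar metabolism and the response to low oxygen. Of 27 measured genes on a list of glycolytic enzymes and hypoxia targets, 6 were members, all lower: Pfkl, Pfkfb3, Aldoc, Ldhb, Egln3 and Ero1l. A further 12 were lower in all 6 comparisons without reaching 1.5-fold in each, among them Slc2a1, Pgk1, Pdk1, Bnip3 and Slc16a3. None of the 27 was higher in all 6. Over all genes, 1.05% met the rule as lower, and 12.2% were lower and 10.3% higher in all 6. The list was drawn up with earlier results of these data known. The list's median log2 ratio was -0.84, -1.51 and -1.66 in SOX2, FNV and miniSOX in 2i and -0.49, -1.32 and -1.05 in SL.

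Pfkl (chr10:77986947-78010083) encodes the liver-type subunit of phosphofructokinase, the committing enzyme of glycolysis. Its values in 2i were 7310, 7061 and 2447 in NTC, and 798 to 1488 over the 10 rescued libraries. In SL they were 9369 and 8272 in NTC, 4455 and 6700 in SOX2, 3619 and 2954 in FNV, and 4454 and 4411 in miniSOX. Every rescued library was below every NTC library, by 4.65-fold to 5.26-fold on the means in 2i and 1.58-fold to 2.68-fold in SL.

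Aldoc, an aldolase isoform, and Ldhb, the lactate dehydrogenase subunit that favours pyruvate, were members too. Aldoc (chr11:78322968-78327781) stood at 416, 426 and 64 in NTC in 2i, at 45 to 93 in SOX2, 47 to 94 in FNV, and 27 and 28 in miniSOX. Ldhb (chr6:142490249-142507957) stood at 6700, 6700 and 2074 in NTC, 467 to 3056 in SOX2, 72 to 381 in FNV, and 273 and 298 in miniSOX. For both genes NTC p31 overlapped SOX2 libraries in 2i, while in SL no rescued library reached the NTC range. For Aldoc NTC p31 also overlapped FNV, and the 2i ratios of SOX2 and FNV rest on the first set. Its log2 ratio was -2.60 in SOX2 and -3.12 in FNV there, and 0.11 and 0.15 against NTC p31. In SL, Ldhb held 7524 and 6556 in NTC, 2602 and 3237 in SOX2, and 1211 to 1487 in FNV and miniSOX.

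Pfkfb3 makes fructose-2,6-bisphosphate, the activator of phosphofructokinase. Its values in SL were 621 and 579 in NTC, 341 and 239 in SOX2, 57 and 45 in FNV, and 91 and 92 in miniSOX. In 2i NTC held 622, 660 and 171, and SOX2 464, 412, 118 and 85, so replicates 1 and 2 of SOX2 lay above NTC p31. FNV and miniSOX held 32 to 113 in 2i, below all NTC libraries.

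Egln3, the prolyl hydroxylase, had the widest gap of the 6 in 2i. NTC stood at 490, 572 and 355, and the 10 rescued libraries at 16 to 35, which is 15.5-fold lower in SOX2, 21-fold in FNV and 28.6-fold in miniSOX. In SL the SOX2 line kept most of the level, with 538 and 560 against 956 and 927 in NTC, while FNV held 75 and 66 and miniSOX 103 and 116. Ero1l, the oxidase that forms disulfide bonds in the endoplasmic reticulum, was 1.70-fold to 2.08-fold lower on the means in all 6. NTC p31 (805) lay inside the range of the rescued libraries in 2i (573 to 1461). The 2i ratios of Ero1l in SOX2 and FNV rest on the first set. The log2 ratio was -0.77 and -1.12 there, and -0.10 and 0.15 against NTC p31.

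NTC p31 was the lowest NTC library in 2i for all 6 of these genes, and for 17 of the 18 list genes that were lower in all 6 comparisons. Each rescued library of the second set was still below NTC p31 for 4 of the 6 and 14 of the 18.

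Other lower genes act in the same metabolism, though they were picked out after their values were seen. Pgm1, which interconverts glucose 1-phosphate and glucose 6-phosphate, Pygl, the liver glycogen phosphorylase, and Ppp1r3c, a glycogen-targeting subunit of protein phosphatase 1, form one group. Pgm1 stood in SL at 1018 and 796 in NTC, 462 and 706 in SOX2, 150 and 209 in FNV, and 330 and 327 in miniSOX. Pygl stood at 263 and 286 in NTC, 72 and 98 in SOX2, 27 and 52 in FNV, and 111 and 87 in miniSOX. Ppp1r3c was 1.63-fold, 2.68-fold and 4.08-fold lower in SL in the same order. In 2i all 3 had NTC p31 (127, 53 and 53) inside the range of the rescued libraries. For SOX2 and FNV the 2i ratios rest mainly on the first set. The log2 ratio there was -2.19 and -2.81 for Pgm1, -1.37 and -2.02 for Pygl, and -0.82 and -1.24 for Ppp1r3c. Against NTC p31 it was -0.36 and 0.11, -0.36 and -0.22, and 0.05 and 0.29 in the same order.

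Ndufa4l2, a mitochondrial protein induced in low oxygen, was at 122, 223 and 25 in NTC in 2i and at 0 to 15 in all 10 rescued libraries. In SL it was at 104 and 245 in NTC, 55 and 48 in SOX2, 4 and 5 in FNV, and 32 and 39 in miniSOX. Car12, a carbonic anhydrase at the cell surface, stood at 105 to 135 in NTC in 2i and at 16 to 54 in the rescued libraries. Pdha1, a subunit of pyruvate dehydrogenase, was 1.67-fold to 2.81-fold lower over the 6 comparisons, and Slc25a4, the mitochondrial ATP and ADP carrier, 1.52-fold to 1.74-fold, with no overlap of libraries for Car12, Pdha1 or Slc25a4 in either medium. Nampt, which makes the NAD precursor nicotinamide mononucleotide, was 1.55-fold to 2.35-fold lower with no overlap, and Pink1, a kinase of mitochondrial quality control, 1.51-fold to 4.75-fold lower with overlap in 2i.

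Against these lower targets, Epas1, which encodes the hypoxia-inducible factor HIF-2 alpha and was also picked after its values were seen, was a higher gene. Epas1 stood at 35, 29 and 41 in NTC in 2i, 208 to 730 in SOX2, 766 to 1197 in FNV, and 415 and 469 in miniSOX. In SL it stood at 156 and 99 in NTC and 178 to 403 in the rescued lines. No rescued library overlapped NTC in either medium.

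Aire (chr10:78030022-78043610), best known as the regulator of self-antigen expression in the thymus, is the neighbour of Pfkl within 500 kb among the lower genes. NTC held 2170, 2493 and 73 in 2i, against 7 to 56 in the rescued libraries. In SL NTC held 3967 and 3266, SOX2 1563 and 1804, FNV 311 and 230, and miniSOX 444 and 462.

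**Figure D3:**
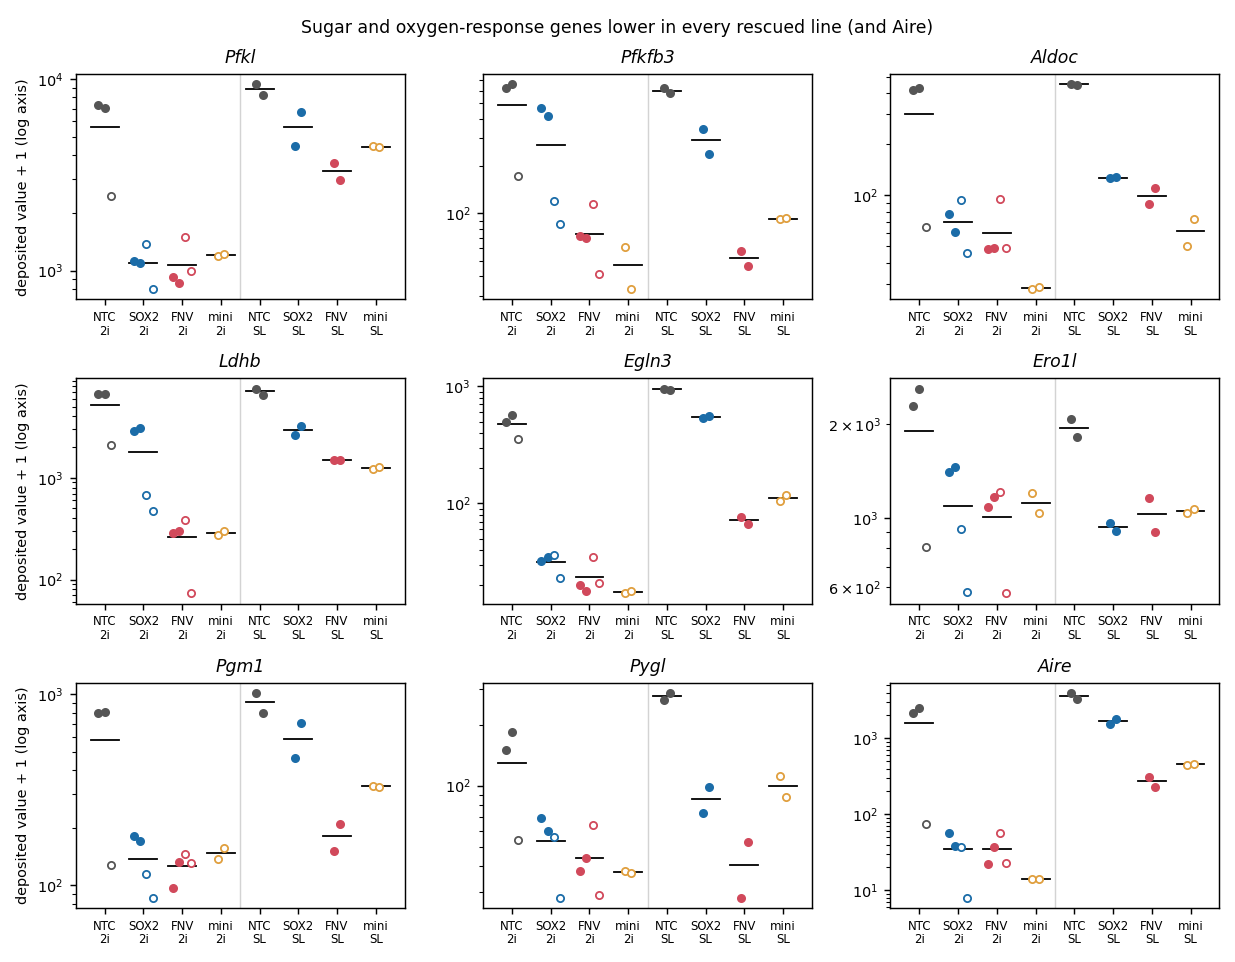
Each panel shows 1 gene, with the deposited value plus 1 of every library on a log axis by group, filled points for the first set of libraries, open points for the second, and a bar at the group mean. Egln3 in 2i is at 16 to 35 in all 10 rescued libraries against 355 to 572 in NTC, and the open NTC point in 2i (NTC p31) is the lowest NTC point in all 9 panels.

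On the list of stress-response genes 3 members were lower and 1 was higher. Ddit4, an inhibitor of mTORC1 that also responds to low oxygen, Stc2, a secreted glycoprotein, and Vldlr, a lipoprotein receptor, were 1.70-fold to 2.86-fold, 1.71-fold to 3.22-fold and 1.73-fold to 4.05-fold lower over the 6 comparisons. All 3 were separated from NTC in SL and had NTC p31 within the rescued range in 2i. Their 2i ratios in SOX2 and FNV rest mainly on the first set. The log2 ratio there was -1.90 and -1.60 for Ddit4, -1.67 and -2.20 for Stc2, and -1.35 and -2.54 for Vldlr. Against NTC p31 it was 0.15 and 0.62, 0.59 and -0.08, and 0.37 and -0.30 in the same order. Phgdh, the entry enzyme of serine synthesis, was the higher one, at 1686 and 1988 in NTC in SL against 2743 to 5573 in the rescued lines, and at 1880, 1917 and 252 in NTC in 2i against 1133 to 4581. Of the 34 measured genes on that list 7 were higher and 4 lower in all 6 comparisons. Its central factors Atf4 and Ddit3 kept no common direction.

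Among lower genes of transcription and the nervous system, Sox21 (chr14:118233232-118237030), a relative of SOX2 that is expressed with it in neural progenitors, was among the most lowered. In 2i NTC held 1415, 1399 and 5155, SOX2 87, 99, 232 and 472, FNV 21, 22, 27 and 135, and miniSOX 44 and 44. In SL NTC held 1456 and 1737, SOX2 501 and 191, FNV 4 and 4, and miniSOX 3 and 2. The SOX2 mean lay between NTC and the other lines in both media, though FNV p31 in 2i (135) was above 2 SOX2 libraries, and no rescued library overlapped NTC. The RNA 4933431J24Rik, within 500 kb of it, was a lower gene too. Sox21 was 1 of 11 measured genes of the Sox list, of which 2 were lower in all 6.

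Pax6, a transcription factor of the neural tube and eye, stood at 9, 14 and 26 in NTC in 2i and at 0 to 7 in the rescued libraries, and at 52 and 73 in NTC in SL against 8 to 25. Dcx, a microtubule protein of migrating neurons, was listed at 0 in all rescued libraries except 1 miniSOX library in SL (29), but also in NTC 1 and 2 in 2i, so its 2i ratio rests on NTC p31 (109). These were the 2 members among 9 measured neuroectoderm genes, of which 2 were lower and 0 higher in all 6 comparisons. The list as a whole was not lower throughout. Its median log2 ratio was 0, -0.97 and -0.76 in SOX2, FNV and miniSOX in 2i, and 0.33, 0.13 and -1.11 in SL. Sall3, a zinc finger factor chosen after its values were seen, stood at 85, 70 and 453 in NTC in 2i, at 25 to 144 in SOX2 and at 1 to 7 in FNV and miniSOX. Rorb, an orphan nuclear receptor, and Dner, a Notch-type ligand of neurons, were among the 10 most lowered, and Dner stood at 180, 181 and 54 in NTC in 2i against 15 to 26 in SOX2 and 1 to 6 in FNV and miniSOX.

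Lower genes of guidance and adhesion included receptors. Nrp2 (chr1:62703285-62818695), a receptor for semaphorins and VEGF, was at 901, 943 and 1603 in NTC in 2i, 51 to 69 in SOX2, 2 to 7 in FNV, and 6 and 11 in miniSOX. Its SL values were 1035 and 1082 in NTC, 261 and 333 in SOX2, 71 and 53 in FNV, and 51 and 54 in miniSOX. Every SOX2 library lay between NTC and the other 2 lines in both media. Ephb4, an ephrin receptor, was 1.52-fold to 4.13-fold lower with no overlap in either medium. On the axon guidance list of 32 measured genes, Sema4a was the only higher member, at 7 and 9 in NTC in SL against 21 to 161 in the rescued lines, and overlapped NTC in 2i. Cdh3, placental cadherin, was 1.52-fold to 4.87-fold lower and the only member of the list of cadherins, protocadherins and contactins (25 measured), which does not hold Cdh12.

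Secreted factors and their partners were also found among the lower genes. Gpc3, a heparan sulfate proteoglycan that restrains growth signals, stood at 1931, 1972 and 1124 in NTC in 2i, 219 to 585 in SOX2 and 64 to 102 in FNV and miniSOX. Its SL values were 2677 and 2621 in NTC and 362 to 592 in the rescued lines. Igfbp2, an insulin-like growth factor binding protein and 1 of the genes named after its values were seen, was among the most abundant members, with 30391, 30391 and 7798 in NTC in 2i, 5995 to 16427 in SOX2 and 280 to 2240 in FNV and miniSOX. In SL it held 14822 and 21188 in NTC, 10054 and 8736 in SOX2, and 2384 to 3863 in FNV and miniSOX. SOX2 overlapped NTC p31 in 2i, and FNV and miniSOX did not overlap NTC.

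Acvr1c, the ALK7 receptor for Nodal and activins, stood at 18, 19 and 219 in NTC in 2i and was listed at 0 in 8 of the 10 rescued libraries, with 10 and 5 in the others. In SL it was at 73 and 82 in NTC and 0 to 24 in the rescued lines. Pdzrn4, a ubiquitin ligase family member, and Col20a1, a collagen, were 6.15-fold and 9.03-fold lower in SOX2 in 2i and 6.58-fold and 5.25-fold lower in SOX2 in SL. For Col20a1 the 2i ratio rests on the first set: the log2 ratio was -3.40 in SOX2 and -4.11 in FNV there, and -0.29 and -0.25 against NTC p31. Fgf10, Wnt5a and Dact1, chosen after their values were seen, encode a fibroblast growth factor, a Wnt ligand and a modulator of Wnt signalling. Fgf10 was at 277 and 293 in NTC in SL against 119 and 107 in SOX2, 35 and 35 in FNV, and 102 and 53 in miniSOX, and Wnt5a was at 70 and 53 in NTC against 21 and 21, 1 and 2, and 5 and 10. In 2i Wnt5a was at 2 and 1 in NTC replicates 1 and 2 and 34 in NTC p31, so its 2i ratio rests on that library. Dact1 was lower without overlap in both media.

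Lower genes of metal handling and host defence were fewer. Mt1 (chr8:94179082-94180327), the metal-binding metallothionein 1, was at 21185 and 22912 in NTC in SL, 13688 and 11819 in SOX2, 2283 and 1880 in FNV, and 1627 and 1574 in miniSOX. In 2i it was at 12486, 12486 and 4732 in NTC and 1219 to 8269 in the rescued lines, where FNV replicates 1 and 2 (6245 and 8269) overlapped NTC p31. Mt1 was the only member of 14 measured genes on a list for drug and metal responses. Tfrc, the transferrin receptor that brings in iron, and Slc11a1, a metal transporter of endosomes, were named after their values were seen. Tfrc was at 10050 to 10739 in NTC in 2i against 2919 to 5265, and at 22912 and 21185 in NTC in SL against 4306 to 12486, with no overlap. Slc11a1 was at 75, 88 and 28 in NTC in 2i and 5 to 28 in the rescued libraries.

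Of 29 measured genes of the interferon and virus-sensing list, 3 were members. Ifitm1 (chr7:140967221-140969825), a membrane protein of interferon responses and of early germ cells, was lower: 735, 726 and 855 in NTC in 2i, 138 to 319 in SOX2, 16 to 25 in FNV, and 42 and 37 in miniSOX. The values in SL were 1509 and 1428 in NTC, 286 and 243 in SOX2, 316 and 342 in FNV, and 645 and 603 in miniSOX. Rsad2, which encodes viperin, was lower as well, with 104 and 124 in NTC in SL against 6 to 86, and overlapped NTC in 2i. Cgas, the sensor of cytosolic DNA, was higher: 46 to 50 in NTC in 2i against 62 to 124, and 21 and 26 in SL against 32 to 71, with no overlap. Over the list, 4 genes were higher and 5 lower in all 6 comparisons, and its median log2 ratio ranged from -0.58 (SOX2 in SL) to 0.59 (FNV in 2i).

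Single members of other lists were lower. Ier3, an early gene downstream of ERK, was at 420 and 368 in NTC in SL, 166 and 182 in SOX2, 20 and 22 in FNV, and 94 and 113 in miniSOX, and at 70 to 87 in NTC in 2i against 7 to 30. Plagl1, an imprinted zinc finger gene, was at 602 and 472 in NTC in SL, 66 and 69 in SOX2, 129 and 49 in FNV, and 351 and 338 in miniSOX, and was 1.57-fold to 4.78-fold lower in 2i. Neither overlapped NTC. Gstm1 (chr3:108012255-108017973), a glutathione transferase, was at 843 to 945 in NTC in 2i, 516 to 621 in SOX2, 270 to 305 in FNV, and 213 and 216 in miniSOX, and its neighbour Gstm3 was lower too. The 2 genes are close relatives in 1 cluster, and how reads shared by both were counted is not stated in the labels.

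Among the higher genes, Inhbb (chr1:119415465-119422248), the beta B subunit of activin B and inhibin B, was among the higher genes with the largest ratios. It was at 2, 1 and 1 in NTC in 2i, 62, 38, 65 and 18 in SOX2, 84, 72, 31 and 86 in FNV, and 123 and 135 in miniSOX. In SL it was at 4 and 2 in NTC, 270 and 188 in SOX2, 589 and 583 in FNV, and 347 and 386 in miniSOX. The NTC values are close to 0, so the ratios (34.3 or more) rest on a few units. It was the only member among 25 measured genes of the BMP, TGF-beta and Nodal list.

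Several higher genes are known from neurons. No list of such genes was set, and apart from Ppp2r2c, Map6 and Rab3c those named here were picked after their values were seen, so no share is given. Ppp2r2c (chr5:36868513-36955078), a regulatory subunit of protein phosphatase 2A in brain, was at 57, 62 and 296 in NTC in 2i and 1347 to 2743 in the rescued libraries. In SL the values were 9 and 12 in NTC, 75 and 62 in SOX2, 1007 and 827 in FNV, and 115 and 102 in miniSOX, so that FNV stood apart in that medium. Nptx2, a pentraxin that gathers glutamate receptors at synapses, was at 107, 82 and 154 in NTC in 2i, 780 to 864 in SOX2, 1870, 1932, 1900 and 6247 in FNV, and 2818 and 2987 in miniSOX. The SL values were 131 and 106, 557 and 456, 2295 and 2199, and 1479 and 1341 in the same order.

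Map6, which stabilises microtubules, was at 18, 20 and 50 in NTC in 2i and 136 to 407 in the rescued libraries, and at 8 and 22 in SL against 47 to 320. Rab3c, a GTPase of synaptic vesicles, was at 1 or 2 in every NTC library and at 46 to 172 in FNV and miniSOX in 2i, but at 1, 2 and 2 in 3 of the 4 SOX2 libraries. Nefh and Nefm, the heavy and medium neurofilament subunits, overlapped NTC p31 in 2i. Nefh was at 26 and 20 in NTC in SL against 336 to 602 in the rescued lines, whereas Nefm was at 2 and 5 against 7 to 40. Nrxn2 (a presynaptic adhesion protein) and Asic1 (a proton-gated channel) did not overlap NTC and were 3.25-fold to 11.2-fold and 5.34-fold to 19.7-fold higher, while Syt4 (a synaptotagmin) overlapped NTC in 2i. Syt4 was listed at 0 in all 3 NTC libraries in 2i and in 2 of 4 SOX2 libraries.

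Signalling and transcription genes were among the higher genes too. Klf4 (chr4:55527143-55532466), a factor of the naive pluripotency network, was the only member of the 21 on that list. It was at 2761, 2698 and 1981 in NTC in 2i, 3580 to 5266 in SOX2, 3936 to 6871 in FNV, and 8736 and 8736 in miniSOX. In SL it was at 317 and 318 in NTC, 937 and 597 in SOX2, 3514 and 4088 in FNV, and 1207 and 1212 in miniSOX. On the list 3 genes were higher and 2 lower in all 6 comparisons.

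Sfrp1, a secreted Wnt antagonist, and Sgk1, a serum- and glucocorticoid-induced kinase, were named after their values were seen. Sfrp1 was at 563, 559 and 296 in NTC in 2i against 2384 to 3035 in the rescued libraries, and at 142 and 127 in SL against 336 and 369 in SOX2, 1456 and 1516 in FNV, and 428 and 442 in miniSOX. No line stood apart in 2i, and FNV stood above the others in SL. Sgk1 was at 1385 to 1627 in NTC in 2i against 3301 to 5797, and at 716 and 781 in SL against 1286 to 3481. Erbb2, a receptor tyrosine kinase, and Vegfc, a lymphatic growth factor, were higher without overlap in SL and overlapped NTC in 2i. Plk2, a kinase induced by p53, was the only member of 25 measured p53 targets, at 264 to 381 in NTC in 2i against 613 to 1028, and at 304 and 270 in SL against 513 to 861; 6 of the 25 were higher in all 6 comparisons and 0 lower.

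Nectin1, an adhesion molecule at cell junctions, and Thy1, a surface glycoprotein of neurons and fibroblasts, lie within 500 kb of each other on chromosome 9 and were both higher. Nectin1 was at 92 to 96 in NTC in 2i against 344 to 1010, and at 63 and 80 in SL against 265 to 431. Thy1 was at 4 and 5 in NTC in SL, 40 and 27 in SOX2, 530 and 523 in FNV, and 105 and 103 in miniSOX, and overlapped NTC in 2i, where SOX2 p31 held 6. Thy1 was the only member among 14 measured genes of the fibroblast list. The summed level of the 9 fibroblast markers in SL was 1404 to 1429 in NTC, 939 to 1063 in SOX2, 972 to 978 in FNV and 1261 to 1369 in miniSOX, with Lum at 0 in all of these libraries. Another marker of that list, Col1a1, was at 42 and 55 in NTC, 25 and 23 in SOX2, 28 and 53 in FNV, and 221 and 325 in miniSOX, and the median log2 ratio of the 14 genes in SL was -0.62, 0 and 0.50 in the 3 lines. The part of other cell types in the Thy1 values was not tested.

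Ttn and Neb, the giant proteins of the muscle sarcomere, were also picked after their values were seen. Ttn was at 210, 205 and 451 in NTC in 2i against 674 to 5395 in the rescued libraries, and at 107 and 123 in SL against 178 to 512. Neb was at 103 to 152 in the NTC libraries of both media and 171 to 1149 in the rescued lines. Transcripts over 10000 bases made up 4.48% of the higher genes, 1.74% of the lower genes and 2.51% of all genes.

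The list of genes of 2-cell-like cells gave 3 members; such cells are a rare state of stem cell cultures that resembles the cleavage-stage embryo. Usp17lb was at 6 and 18 in NTC in SL and 29 to 72 in the rescued lines, Zfp352 was listed at 0 in NTC in SL and at 23 to 75 in the rescued lines, and Tdpoz3 was at 0 against 8 to 68. In 2i all 3 overlapped NTC, Usp17lb and Zfp352 through NTC p31 (37 and 32). Of the 18 measured genes on the list 12 were higher in all 6 comparisons and 0 lower, and the median log2 ratio was 0.28, 1.001 and 0.98 in SOX2, FNV and miniSOX in 2i and 1.29, 2.74 and 1.37 in SL. Over all genes, 1.22% met the rule as higher and 10.3% were higher in all 6. This list too was drawn up with earlier results of these data known. NTC p31 was above both other NTC libraries in 2i for 16 of the 18. Usp17lb, Zfp352 and Tdpoz3 have close relatives, so reads may have been divided between copies.

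**Figure D4:**
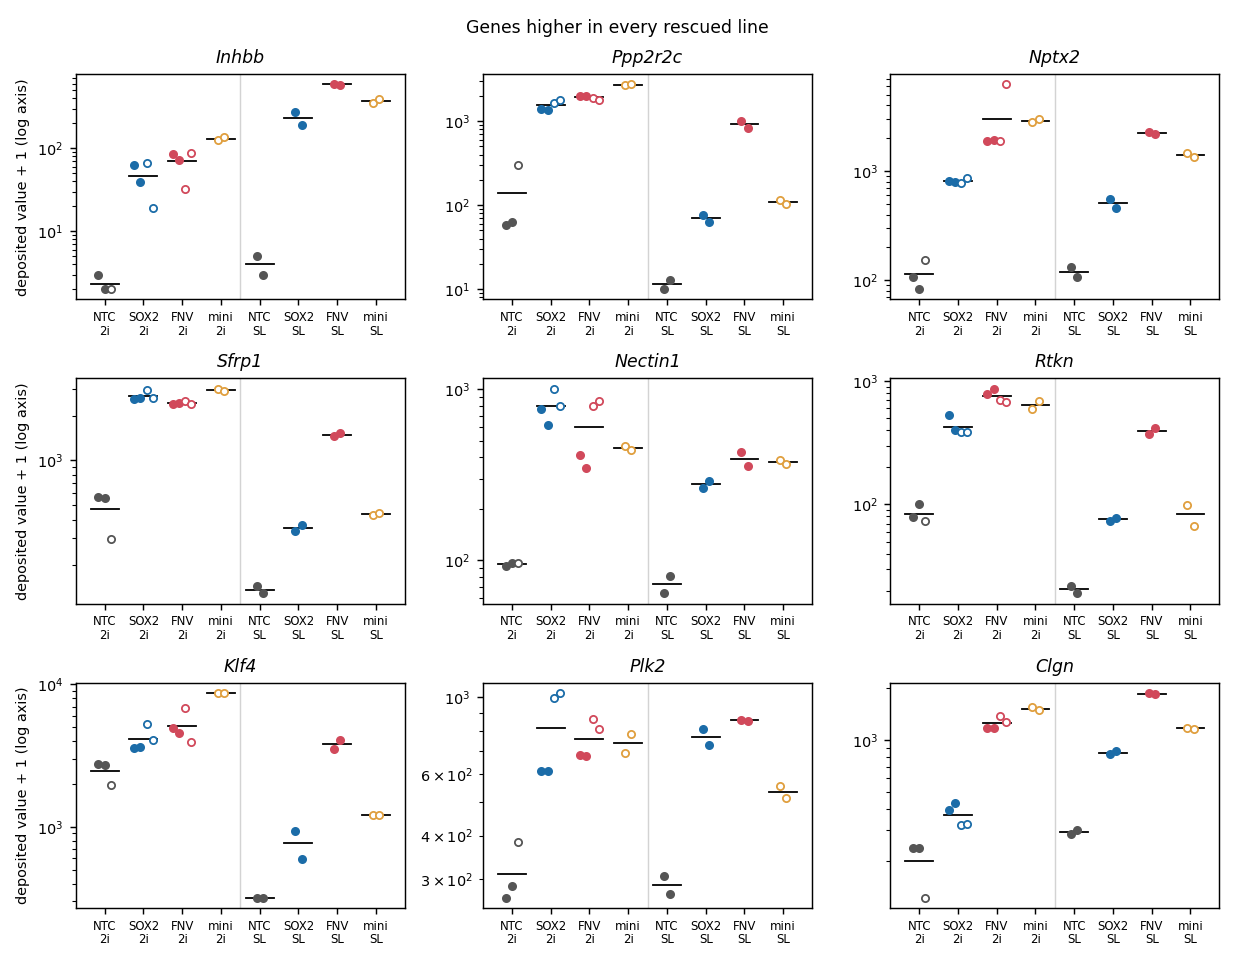
Each panel shows 1 higher gene, with the deposited value plus 1 of every library on a log axis by group, filled points for the first set of libraries, open points for the second, and a bar at the group mean. In all 9 panels every rescued library lies above every NTC library of its medium; Klf4 in 2i runs from 3580 to 8736 against 1981 to 2761 in NTC.

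Of the 28 lists, 13 held no member. They were mitochondrially encoded genes (13 measured, 2 higher and 0 lower in all 6 comparisons), the mitochondrial unfolded protein response (13, 1 and 2), nuclear-encoded respiratory chain genes (30, 5 and 1), the Dlk1-Dio3 region (5, 1 and 2), formative and primed pluripotency (21, 1 and 1), trophectoderm (25, 0 and 1), extraembryonic endoderm (18, 1 and 1), basement membrane and matrix (29, 4 and 4), Wnt targets (15, 1 and 0), germline and meiosis (30, 4 and 0), integrins (15, 1 and 1), the Notch pathway (14, 1 and 4), and cholesterol and fatty acid synthesis (24, 11 and 1). The lists of ERK targets (18 measured, 1 higher and 4 lower in all 6), other imprinted genes (33, 2 and 3), p53 targets, fibroblast genes (14, 1 and 2), axon guidance (32, 5 and 3), cadherins (25, 1 and 3) and the BMP, TGF-beta and Nodal pathway (25, 3 and 4) held a member or a few as given above. Over all genes, 10.3% were higher and 12.2% lower in all 6. The median log2 ratio of the cholesterol and fatty acid list was 0.30, 0.28 and 0.12 in SOX2, FNV and miniSOX in 2i. In SL it was 0.37, 0.32 and 0.07.

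Many of the largest ratios come from genes listed at 0 in NTC. Among the 201 higher genes 48 were at 0 in at least 1 library, and 20 took only the value 0 or values of 20 and more; among the 172 lower genes these counts were 36 and 14. Of all genes, 691 (4.2%) took such values only, against 9.95% of the higher and 8.14% of the lower genes. Mup3, Lamp3, Skint2, Vmn1r34, Fabp4 and Cdh12, which head the higher genes by their weakest ratio, were all at 0 in all 5 NTC libraries. Of these, Fabp4, a fatty acid binding protein of adipocytes and macrophages, was at 34 to 94 in each rescued library in 2i, while Cdh12, a cadherin, was at 0 in 3 of 4 SOX2 and in 3 of 4 FNV libraries. Lamp3, Skint2, Mup3 and Vmn1r34 were at 0 in 3, 2, 4 and 6 of the 10 rescued libraries in 2i. Serpinb11, at the head of the lower genes, was at 0 in every rescued library, and in NTC at 0, 0 and 48 in 2i and 95 and 34 in SL. No fold is given against a group at 0. A further 106 genes (104 of them higher) would meet the rule only if 0 against 0 counted as a ratio, and they were left out.

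At the threshold, Snai3 and Mmp25 were the last higher genes inside, each with a weakest ratio of 1.5 in miniSOX in 2i, and S100a10 (1.494) and Pmepa1 (1.493) the first outside. Among lower genes, Avpi1 (1.502-fold) and Camk2n1 (1.508-fold) were the last inside, and Abhd16a and Spink1 (1.495-fold each) the first outside.

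The members were low in level next to all genes. The median transcript length was 3394 bases for the higher genes, 3460.5 for the lower and 3159 for all genes, and GC content was 52.1%, 51.6% and 47.5%. The median of the mean deposited value was 98.8 and 86.7 against 225.6. Protein-coding genes made up 96% of the higher, 95.9% of the lower and 90.7% of all genes. The X chromosome held 1.99% of the higher and 6.98% of the lower genes, against 4.21% of all. Predicted or clone names made up 21 and 14 of the members, and olfactory or vomeronasal receptors 4 and 2. These shares were not tested.

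Members that lay within 500 kb of another of the same direction formed 21 runs of higher genes and 15 of lower genes. Besides those named above, the higher runs included Clgn, Ndufb7 and Palm3 on chromosome 8, Rab3c and Plk2 on chromosome 13, Sgk1 and H60b on chromosome 10, Ppp2r2c and Crmp1 on chromosome 5, and Myo18b and Grk3 on chromosome 5. Lower runs included Mt1 and Cpne2 on chromosome 8, S100a1 and S100a13 on chromosome 3, Tcf19 and Ier3 on chromosome 17, and Ephb4, Ppp1r35 and BC037034 on chromosome 5.

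The rescued lines were also compared with each other. The rule set no line against another, but it used the same group means and kept each line's ratio past the threshold. The shares of members called are therefore not independent of the choice of genes and are given as a description beside those of all genes. The test was limma on log2(value + 1) over all genes, with Benjamini-Hochberg adjustment and a call at an adjusted p under 0.05. Between FNV and SOX2 in 2i, 55 of the 201 higher genes were called higher in FNV (27.4%) and 9 lower, where 12.4% of all genes were called higher and 12.9% lower. Of the 172 lower genes, 47 were called lower in FNV (27.3%) and 7 higher. With the second set of libraries alone in 2i, 58 members were called in place of 118.

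In SL the same contrast called 69 of the 201 higher genes higher in FNV and 3 lower (all genes: 10.2% and 11.2%), and 33 of the 172 lower genes lower and 4 higher. The 109 calls became 70 without SOX2 replicate 2 and 64 without FNV replicate 2.

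Of the members with the smallest adjusted p, Ifitm1 was lower in FNV than in SOX2 in 2i by a log2 difference of -3.27 (SE 0.15, limma adjusted p = 4.26e-09), Nrp2 by -3.51 (SE 0.22, 9.32e-08) and Gstm1 by -1.02 (SE 0.07, 3.23e-07). In each, all 4 FNV libraries lay below all 4 SOX2 libraries. In SL the leading members were Mt1, with a log2 difference of -2.62 (SE 0.18, limma adjusted p = 4.59e-07), Ier3, with -2.99 (SE 0.24, 1.6e-06), and Rtkn, with 2.39 (SE 0.18, 7.95e-07). For Mt1 the same log2 difference had a limma adjusted p = 0.0438 without the fit's term for the set of libraries. With only SOX2 and FNV in SL in the fit, limma gave adjusted p = 0.0099 for Mt1 and 0.0097 for Ier3 and Rtkn. Rtkn was at 72 and 77 in SOX2 and 373 and 415 in FNV in SL, and at 21 and 18 in NTC.

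Between miniSOX and SOX2 in 2i, 40 of the 201 higher genes were called higher in miniSOX and 8 lower (all genes: 7.32% and 7.57%), and 37 of the 172 lower genes were called lower and 2 higher. The 87 calls became 35 without miniSOX replicate 1 and 32 without replicate 2. In SL the same contrast called 27 higher genes higher and 14 lower (all genes: 10.4% and 11.2%), and 28 lower genes lower and 12 higher, and the 81 calls became 49 without miniSOX replicate 2.

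Gstm1 led both media, lower in miniSOX by a log2 difference of -1.41 (SE 0.09, limma adjusted p = 3.60e-07) in 2i and -1.51 (SE 0.12, 1.72e-06) in SL. Ifitm1 was lower by -2.65 (SE 0.20, 1.17e-06) in 2i. Clgn, a chaperone of the endoplasmic reticulum in germ cells, was higher by 2.21 (SE 0.18, 3.19e-06), at 1545 and 1482 in miniSOX against 321 to 431 in SOX2. In SL Sox21 was lower in miniSOX than in SOX2 by -8.18 (SE 0.65, limma adjusted p = 1.77e-06) and Nrp2 by -3.17 (SE 0.36, 4.23e-05), with no overlap between the libraries. The Sox21 values behind it were 501 and 191 in SOX2 and 3 and 2 in miniSOX. The fit has a term for the set of libraries, and since every miniSOX library is of the second set and every SOX2 and FNV library in SL of the first, that term enters each miniSOX contrast in SL and is estimated from the 2i libraries. Without that term the difference was -6.49 for Sox21 (limma adjusted p = 0.000211) and -2.47 for Nrp2 (0.00117).

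Between miniSOX and FNV the members differed least in 2i: 9 of the 201 higher genes were called higher in miniSOX and 8 lower (all genes: 3.81% and 3.85%), and 3 of the 172 lower genes were called higher and 7 lower. These shares are near or under those of all genes. The 27 calls became 67 without FNV p21, and 2 without either miniSOX library. In SL, 48 of the 201 higher genes were called lower in miniSOX than in FNV and 5 higher (all genes: 7.8% and 7.4%), and 22 of the 172 lower genes were called higher and 11 lower. The 86 calls became 49 and 54 without FNV replicate 1 and 2, and 47 and 40 without miniSOX replicate 1 and 2.

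The leading members of this contrast in 2i were Dis3l, a cytoplasmic exosome nuclease, with -1.005 (SE 0.17, limma adjusted p = 0.00459), Grk3, a receptor kinase, with 1.84 (SE 0.31, 0.00504), and Ier3, with -1.18 (SE 0.22, 0.00733). Dis3l was at 216 and 235 in miniSOX against 336 to 521 in FNV, and Grk3 at 272 and 266 against 80 to 148. Each of the 3 lost its call when the fit held only FNV and miniSOX in 2i (adjusted p = 0.137, 0.128 and 0.194). Grk3 also lost it without the term for the set of libraries (log2 difference 1.21, limma adjusted p = 0.328). In SL they were Gstm1, with -1.19 (SE 0.12, limma adjusted p = 2.46e-05), Rtkn, with -2.01 (SE 0.21, 3.31e-05), and Plk2, with -1.19 (SE 0.14, 7.08e-05). Plk2 passed with the term for the set of libraries and not without it (log2 difference -0.68, adjusted p = 0.0736).

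**Figure D5:**
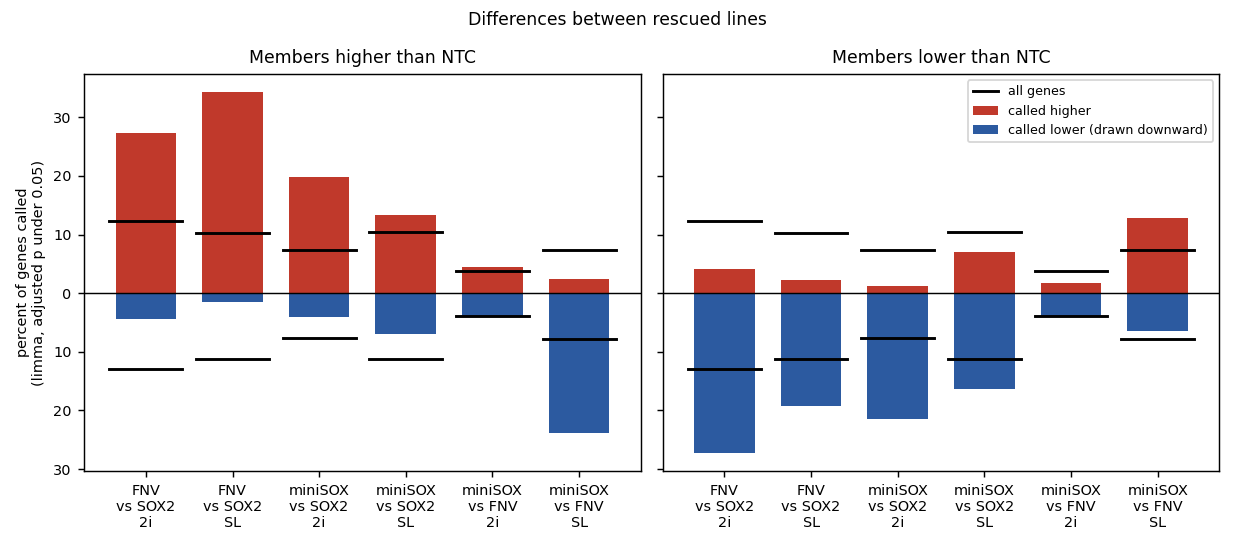
Bars give the percent of the 201 higher genes (left) and the 172 lower genes (right) that limma called higher (upward) or lower (downward) between rescued lines, and black lines the percent of all 16443 genes. In FNV against SOX2 in SL, 34.3% of the higher genes are called higher against 10.2% of all genes, and in miniSOX against FNV in SL 23.9% are called lower against 7.8%.

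The members were also compared between media within NTC. In NTC, 43 of the 201 higher genes were called higher in 2i than in SL and 29 lower (all genes: 11.9% and 12.8%), and 19 of the 172 lower genes were called higher and 23 lower. For the lower genes these are 11% and 13.4%, near the shares of all genes. The 114 calls became 75 without NTC replicate 1 in SL, 172 with the first set of libraries alone and 37 with only the NTC libraries in the fit.

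Celsr1, a cadherin of planar cell polarity, was higher in 2i by a log2 difference of 3.13 (SE 0.18, limma adjusted p = 3.14e-08), at 880, 850 and 576 against 97 and 103. Igsf9, an adhesion protein of dendrites, and Plcg2, a phospholipase C, were lower in 2i by -3.91 (SE 0.27, 2.40e-07) and -2.95 (SE 0.22, 5.80e-07). In the rescued lines Igsf9 was at 23 to 104 in 2i and 448 to 1037 in SL. Celsr1 was at 943 to 2429 and 221 to 1456, and Plcg2 at 262 to 864 and 851 to 1647, so that for these 2 the media overlapped across lines.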

How the data were processed

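Per the labels' protocols, Trizol was used to extract total RNA from 21 samples, and cDNA was primed with random hexamers on mRNA held by oligo(dT) beads. RSEM, Bowtie2 2.0 and mm10 are named in the submitters' processing notes. The authors deposited a single table of 16443 genes whose values are used as a score: whole numbers normalized between libraries, by software not given in the sources used here. Strand use is not given either, so reads of genes that overlap, on either strand, may be mixed. Totals were made equal, so depth is unknown and no interval for it was computed. Of the columns, 16 matched a sample by name and the 5 called p21 or p31 matched a group, and 0 were left unused.

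Members were found from the 8 group means, with 0 against 0 not counted as a ratio. The members, the 28 gene lists and the rule for named genes were chosen with earlier results of these data known. That rule, predicted and clone names left out, names the 10 higher and 10 lower members with the largest weakest ratio (mean + 1), members on a list, 3 members with the smallest adjusted p per tested comparison, 2 genes on either side of the threshold and neighbours within 500 kb. Other names were chosen after their values were seen. Some genes under this rule are not reported here.

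The 7 tested comparisons used limma 3.58.1 in R 4.3.3 (trend and robust variance, two-sided) on log2(value + 1), which understates changes of low genes, with terms for the 8 groups and the 2 sets of libraries (called waves in the alternatives), 12 residual degrees of freedom and Benjamini-Hochberg adjustment over all 16443 genes. The fit was tested on simulated data. Alternatives were other pseudocounts (0.1, 10), a filter, fits without the set term, with a replicate block or with only the 2 groups, repeated quantile normalization, each library left out and, added after the data were seen, each set alone. Tables and figures were made with Python 3.11.15, pandas 2.3.3 and matplotlib 3.10.9. Coordinates are 1-based, from GENCODE M21. Promoter and protein sequences were not used here.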

Additional observations from a re-analysis of the deposited data

Results flagged for a closer look

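For the 85 genes named in the text, the groups with 4 libraries (SOX2 and FNV in 2i) were searched for a library far from the other 3 by Dixon's criterion (0.829 for 4 libraries). It marked 24 of 170 gene and group pairs; chance marks about 1 in 20. In FNV p31 the value was above the other 3 for Nptx2 (6247 against 1870 to 1932), Ttn (5395 against 1509 to 1763), Epas1 (1197 against 766 to 833), Nefh (937 against 247 to 316), Erbb2 (248 against 110 to 117), Rab3c (138 against 46 to 54), Sox21 (135 against 21 to 27) and, over 3 values of 0, Cdh12 (38), Rorb (32) and Acvr1c (10). In FNV p21 it was above for Aldoc (94 against 47 and 48) and Ier3 (26 against 23), and in FNV replicate 2 Tdpoz3 was below (4 against 15 to 17). Wnt5a was at 1 in FNV replicate 1 and 0 in the others, and at 0 in SOX2 p31 and 1 in the others.

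In the SOX2 line, p21 was apart for Sfrp1 (2989 against 2601 to 2635), Rab3c (42 against 1 and 2), Cdh12 (40 against 0) and Mup3 (0 against 217 to 252). SOX2 p31 was apart for Sall3 (144 against 25 to 45) and Fabp4 (86 against 34 to 41). Replicate 1 was apart for Rtkn (529 against 386 to 401) and Rsad2 (13 against 0), and replicate 2 for Vmn1r34 (256 against 0).

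The difference between rescued lines was itself compared between media, by limma's interaction term with Benjamini-Hochberg adjustment, for the members that led a line comparison. It passed in 13 of 17 tests. For FNV against SOX2 the 2i difference minus the SL difference was, on the log2 scale, -3.59 for Ifitm1 (adjusted p = 1.1e-06), 3.19 for Mt1 (7.3e-07), 2.80 for Ier3 (2.83e-05), -1.55 for Rtkn (0.000283), -1.26 for Nrp2 (0.0289) and -0.71 for Gstm1 (0.00129). For miniSOX against SOX2 it was 5.36 for Sox21 (limma adjusted p = 0.000501), -3.35 for Ifitm1 (8.83e-06) and 1.43 for Clgn (0.00403). For miniSOX against FNV it was -3.41 for Ier3 (limma adjusted p = 2.29e-05), 1.90 for Rtkn (0.000199), 0.90 for Plk2 (0.00199) and 0.80 for Gstm1 (0.00164). These members had been picked for a small p in 1 of the media, which favours a difference between media. In the miniSOX tests, line and set of libraries also coincide in SL. Their SL difference rests on the term for the set, which is estimated from the 2i libraries. Without that term the SL difference was -6.49 in place of -8.18 for Sox21 against SOX2. For Plk2 against FNV it was -0.68 in place of -1.19. The difference between media was not tested without that term.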

How the results depend on the processing

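The rule gave 373 genes, 353 to 438 with 1 library left out, 130 with a ratio of 2 (77 higher and 53 lower), and between 265 and 491 under the other settings; adding 10 to each mean left 119 of the 201 higher genes; all 7 comparisons kept the direction of each leading gene. Repeated counts of called members, with 1 library left out, ran from 98 to 135 for FNV against SOX2 in 2i (118 with all), 64 to 76 in SL (109), 32 to 78 for miniSOX against SOX2 in 2i (87), 49 to 61 in SL (81), 2 to 67 for miniSOX against FNV in 2i (27), 40 to 54 in SL (86), and 75 to 132 for 2i against SL in NTC (114). Without the wave term, miniSOX against FNV gave 9 in 2i and 55 in SL. With only the 2 groups in the fit, which also drops the wave term where a group holds 1 set, miniSOX against SOX2 gave 27 in 2i and 104 in SL (49 of them called with all groups), miniSOX against FNV 0 in 2i by limma (58 at an unadjusted p under 0.05) and 112 in SL (53), 2i against SL in NTC 37, and FNV against SOX2 98 and 101; the cause was not tested. With the second set alone in 2i, FNV against SOX2 gave 58 and miniSOX against FNV 13, and with the first set alone 2i against SL in NTC gave 172, both chosen after seeing the data. Of 273 repeats of the 21 leading genes, 262 kept their side of the threshold and 11 lost the call, 10 of them in miniSOX against FNV in 2i.

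Replicate numbers 1 and 2 did not pair the samples: in 28 pairs of groups the deviations correlated between -0.09 and 0.09. A replicate block gave 53 calls for miniSOX against SOX2 in 2i and 5 for miniSOX against FNV in 2i, and moved no other count by over 1.5 times. Group sizes of 2 to 4 libraries limit precision, and values near 0 limit the ratios of low genes.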
